A study of Mus musculus and Homo sapiens with 12 samples.

Results

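SIRT7 peaks of mouse chromosome 11 in embryonic fibroblasts (MEFs) and of human chromosome 17 in K562 cells are described here along the length of each chromosome. The members were every peak on chromosome 11 of the MEF list (mouse build mm9) and every peak on chromosome 17 of the K562 list (human build hg19). They numbered 2258 of 72622 MEF peaks (3.11%) and 708 of 44319 K562 peaks (1.60%). Mouse 11 was divided at 68 Mb into a part of 1564 peaks on the side of the centromere, called proximal below, and a part of 694 peaks on the side of the telomere, called distal. No peak crossed this boundary. The nearest peak below it, with a score of 91.6, ran from 67834695 to 67835512, and the nearest above it, with a score of 53.5, ran from 68111102 to 68111626.

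SIRT7 is a nuclear sirtuin that removes acyl groups from proteins, among them the acetyl group of lysine 18 on histone H3 (H3K18Ac). The study's title names L1 elements, the long interspersed repeats of mammalian genomes, and the nuclear lamina, the protein layer under the nuclear envelope. Mammalian chromosomes alternate between gene-rich segments, in which L1 elements are usually few, and gene-poor segments, which are often L1-rich and often lie at the lamina. Human 17 is a gene-rich chromosome, and the distal part of mouse 11 holds much of its conserved counterpart, in a partly different order. Mouse autosomes have their centromere at one end, whereas human 17 has a short and a long arm.

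The series held 12 chromatin immunoprecipitation and input samples in 7 groups, and the 2 SIRT7 peak lists were analysed here. The MEF list came from wild-type fibroblasts of strain 129s2, taken from embryos of day 14.5 and used at passages 2 to 3. The K562 list came from the wild-type K562 line, which derives from a patient's chronic myeloid leukaemia and has an abnormal set of chromosomes, and the copy number of chromosome 17 was not corrected for. The same SIRT7 antibody was used in both. Each list is recorded under replicate 1 of a group of 2 samples and stands alone without a second list, which leaves no replicate error to test against, and p-values are not given. The read depth is unknown from the lists. Ranges in parentheses after densities, ratios, medians and shares are 95% intervals. They cover counting error only, as if peaks were independent of each other. Peaks clustered along both chromosomes, so these intervals are too narrow for differences between regions, and the spread over bins is given beside them.

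Several genes known from human 17 mark the conserved segment on mouse 11. In RefSeq's gene table of the later mouse build GRCm38, used for names and order only, Trp53 (the p53 tumour suppressor) came after Egfr, a growth factor receptor gene whose human counterpart lies on another chromosome. Trp53 was followed by Aspa (aspartoacylase), Nf1 (neurofibromin, a regulator of Ras), Col1a1 (a chain of type I collagen, which fibroblasts secrete), Hoxb13 (a homeobox gene of the Hoxb cluster), Brca1 (a DNA repair gene) and Sox9 (a transcription factor of cartilage and gonad), in this order. The human counterparts of these 7 genes lie on human 17. The table lists 104 olfactory receptor genes and pseudogenes on mouse 11, of which 56 lie between Egfr and Trp53, 44 between Trp53 and Nf1 and 4 beyond Nf1. Human 17 carries a counterpart of the cluster between Trp53 and Nf1 on its short arm. No gene annotation of mm9 or hg19 was used, so peaks and bins are given by position and were not matched to genes.

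Both chromosomes were chosen as the sparsest autosomes of their lists, so their low density is a description and not a finding. The density of mouse 11 was 19.01 peaks per Mb (18.2 to 19.8). The other 18 autosomes had 27.5 per Mb, so the ratio was 0.691 (0.662 to 0.721). The next sparsest mouse autosome, chromosome 19, had 22.6 per Mb. The density of human 17 was 8.72 per Mb (8.09 to 9.39) and that of the other 21 autosomes 14.8 per Mb, a ratio of 0.590 (0.547 to 0.636). The next sparsest human autosome, chromosome 22, had 9.26 per Mb. Peaks covered 3.33% of mouse 11 against 5.11% of the other autosomes, and 0.633% of human 17 against 1.17%.

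The low density of mouse 11 lay mainly in its distal part, which holds much of the counterpart of human 17. Where the conserved segment begins was not determined, so the proximal part may hold some of it. The distal part had 12.9 peaks per Mb (12.0 to 13.9) and the proximal part 24.1 per Mb (22.9 to 25.3), a ratio of 0.536 (0.490 to 0.587). Against the other autosomes, the distal part had 0.469 times (0.435 to 0.505) their density and the proximal part 0.875 times (0.831 to 0.920). Peaks covered 21.3 kb of each Mb of the distal part and 43.2 kb of each Mb of the proximal part, where the other autosomes had 51.1 kb. In human 17, the ratio to the K562 autosomes lay between those of the distal part and the whole of mouse 11, but the lists differ in species and perhaps in depth, and no test was made between them.

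Megabase bins showed the same contrast with a wide spread. The 64 bins below 68 Mb held 5 to 51 peaks, with a median of 23 and quartiles of 14 and 32.3. The 53 bins from 68 Mb held 1 to 57 peaks, with a median of 10 and quartiles of 6 and 16. The ranges overlapped almost fully, but the upper quartile of the distal bins was close to the lower quartile of the proximal ones. The other mouse autosomes had a median of 26 peaks per bin and quartiles of 16 and 38. A bin was called sparse at or below that lower quartile and dense at or above that upper quartile. By these rules 27.0% of the bins of the other autosomes were sparse and 27.0% were dense. Of the distal bins 40 (75.5%) were sparse and 2 (3.77%) were dense, and of the proximal bins 21 (32.8%) were sparse and 10 (15.6%) were dense. Only 4 distal bins (7.55%) exceeded the median of the other autosomes, against 27 proximal bins (42.2%).

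**Figure D1:**
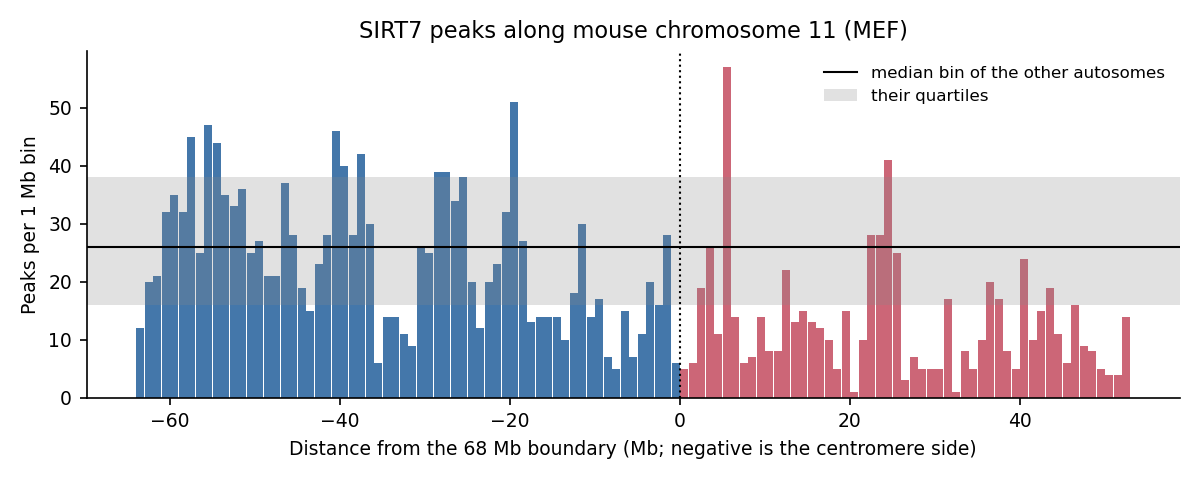
SIRT7 peaks per 1 Mb bin of mouse chromosome 11 in MEFs, by distance from the 68 Mb boundary in Mb, with proximal bins in blue and distal bins in red; the line and band give the median (26) and quartiles (16 and 38) of the bins of the other autosomes. Of the 53 distal bins, 40 lie at or below the lower edge of the band and 2 above it, and the sparse stretch starts before the boundary.

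The change in density did not sit at 68 Mb. In windows of 10 Mb, mouse 11 had 33.8 peaks per Mb (30.3 to 37.6) at 10 to 20 Mb, 28.5 (25.3 to 32.0) at 20 to 30 Mb, 21.6 (18.8 to 24.7) at 30 to 40 Mb and 29.6 (26.3 to 33.2) at 40 to 50 Mb. From 50 Mb on no window passed 17 per Mb. The density was 15.1 (12.8 to 17.7) at 50 to 60 Mb, 11.9 (9.86 to 14.2) at 60 to 70 Mb, 17 (14.5 to 19.8) at 70 to 80 Mb, 11.6 (9.59 to 13.9) at 80 to 90 Mb and 16.4 (14.0 to 19.1) at 90 to 100 Mb. The last windows, 100 to 110 Mb and 110 to 120 Mb, had 10.8 (8.86 to 13.0) and 9.7 (7.87 to 11.8). The window at 110 to 120 Mb was the sparsest of the chromosome, and 3 of the 209 whole windows of the other autosomes (1.44%) held as few peaks or fewer. The window at 10 to 20 Mb was the densest, and 50 of those 209 windows held as many or more.

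A split at 50 Mb, chosen after the profile was seen, describes the step more closely. Below 50 Mb mouse 11 had 27.8 peaks per Mb (26.3 to 29.3), and its ratio to the other autosomes was 1.01 (0.955 to 1.07). Between 50 and 68 Mb it had 14.4 per Mb (12.7 to 16.3), and that ratio was 0.523 (0.461 to 0.591). The distal part had 0.897 times (0.776 to 1.04) the density of this 18 Mb stretch, an interval that includes 1. The sparse stretch of mouse 11 was thus longer than the part from 68 Mb, and the part below 50 Mb had the density of the other autosomes taken whole. It is not a comparison of like parts, since 14 of the other 18 autosomes were denser on the side of the centromere when split as described below.

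**Figure D2:**
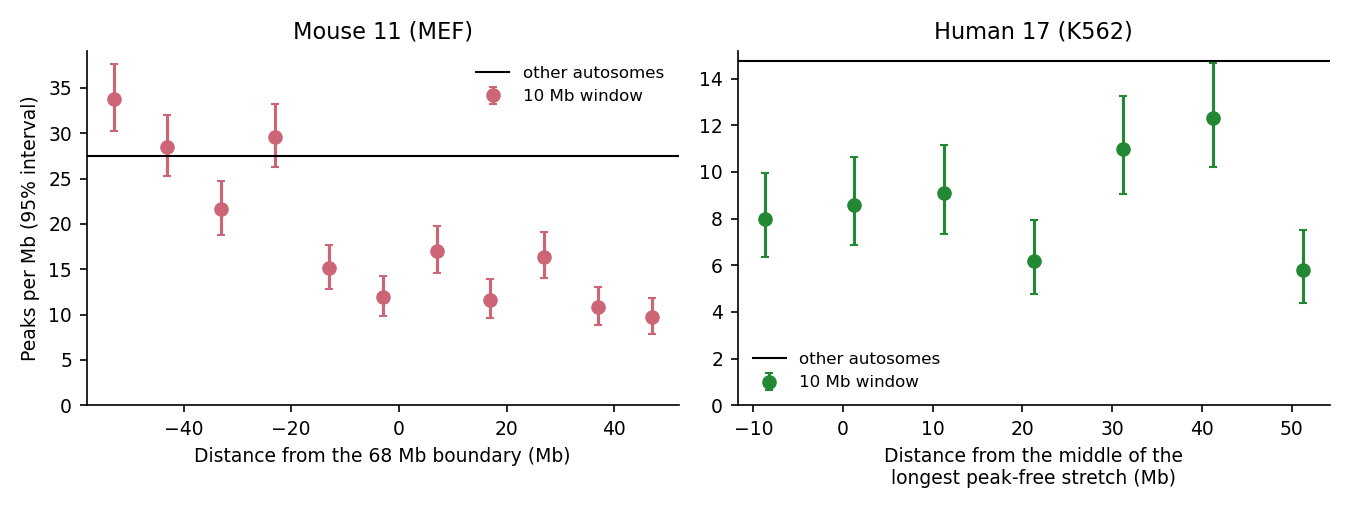
SIRT7 peaks per Mb in whole 10 Mb windows of mouse 11 (left, MEFs) and human 17 (right, K562), with 95% Poisson intervals, by distance in Mb from the 68 Mb boundary or from the middle of the longest peak-free stretch; the line is the density of the other autosomes of the list (27.5 and 14.8). Mouse windows fall from 33.8 to 9.7 per Mb with a step near 50 Mb, and every human window lies below the line.

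A lower density toward the telomere was common among mouse autosomes. When each of the other 18 was split at the same share of its span as mouse 11 (54.7%), 14 had a ratio of distal to proximal density below 1, with a median of 0.786 and a range from 0.582 to 1.45. Mouse 11 had the lowest ratio of the 19, 0.536 (0.490 to 0.587), but its interval overlapped those of chromosome 4 with 0.582 (0.546 to 0.620), chromosome 15 with 0.586 (0.540 to 0.635) and chromosome 5 with 0.619 (0.579 to 0.662). The level of the distal part stood further apart. The distal parts of the other autosomes had 19.3 to 33.2 peaks per Mb, none as low as the 12.9 per Mb of mouse 11. Their proximal parts had 22.9 to 36.5 per Mb, and 1 was below the 24.1 per Mb of mouse 11. Since mouse 11 was chosen as the sparsest autosome, a low level in at least part of it followed from the choice.

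**Figure D3:**
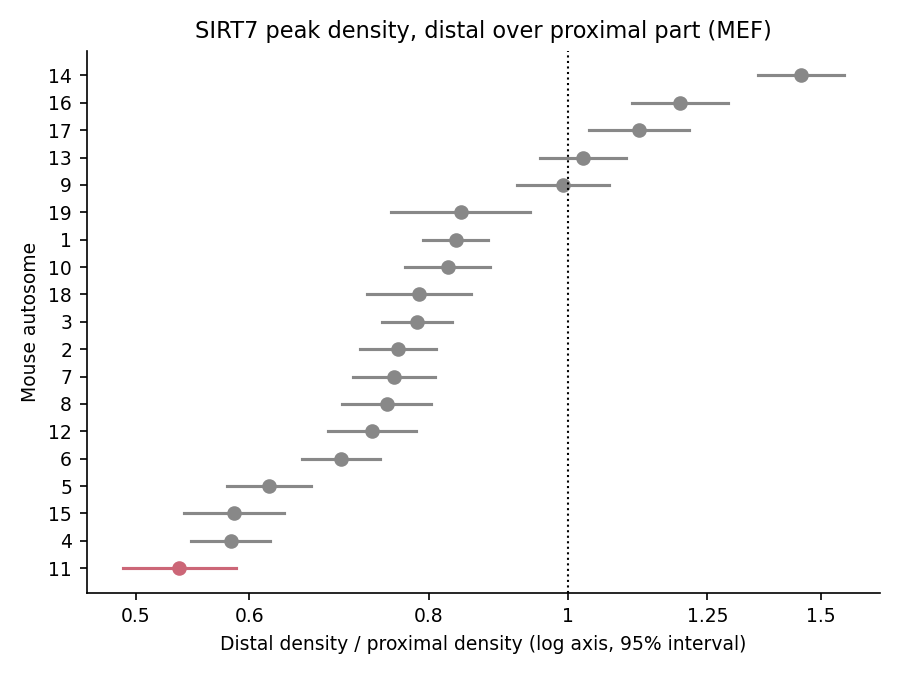
Ratio of distal to proximal SIRT7 peak density for each mouse autosome in MEFs, on a log axis, with 95% exact intervals; mouse 11 (red) is split at 68 Mb and the others at the same share of their span. Mouse 11 has the lowest ratio, 0.536, and its interval overlaps those of chromosomes 4, 15 and 5.

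The distal part of mouse 11 was broken by a few dense bins. The densest of the whole chromosome lay at 73 to 74 Mb, 5 Mb past the boundary, with 57 peaks that covered 107 kb. Of the 2270 bins of the other autosomes, 40 (1.76%) held as many or more. The peaks of this bin had a median width of 1021 bp and a median score of 116, and 18 were wider than 2 kb. Its neighbours at 72 to 73 Mb and 74 to 75 Mb held 11 and 14 peaks, so the rise stood in a single bin. The next densest distal bins were 92 to 93 Mb with 41 peaks and 90 to 91 Mb with 28, both within a run from 90 to 94 Mb that held 122 peaks in 4 bins. The peaks at 92 to 93 Mb were narrow, with a median of 797 bp and 6 wider than 2 kb. Those at 90 to 91 Mb had a median width of 1291 bp and a median score of 260, and 12 of the 28 were wider than 2 kb.

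Long runs of sparse bins filled most of the rest. From 81 to 90 Mb, 9 bins in a row were sparse and held 94 peaks, and from 112 to 121 Mb another 9 held 77. The sparsest distal bins were 88 to 89 Mb and 100 to 101 Mb with 1 peak each, and 94 to 95 Mb with 3. Those single peaks were wide, 5694 bp with a score of 281 and 6766 bp with a score of 186. Of the 2270 bins of the other autosomes, 11 (0.485%) held 1 peak or none, and all 11 were empty. The longest stretch of the distal part without a peak was 850 kb, from 118330989 to 119180878, and 8 stretches reached 500 kb. The proximal part had 1 such stretch, of 574 kb, from 59800105 to 60374389. The median space between neighbouring peaks was 30.1 kb in the distal part and 21.2 kb in the proximal part.

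In the proximal part the densest bins were 48 to 49 Mb with 51 peaks, 12 to 13 Mb with 47 and 27 to 28 Mb with 46. They covered 89.5, 90.8 and 90.3 kb. The longest run without a sparse bin went from 5 to 24 Mb and held 583 peaks in 19 bins. The sparsest were 60 to 61 Mb with 5 peaks and 32 to 33 Mb and 67 to 68 Mb with 6 each. The bin at 32 to 33 Mb opened a sparse run of 5 bins with 54 peaks inside an otherwise well-filled stretch, and the bins at 60 to 61 and 67 to 68 Mb lay in the sparse stretch past 50 Mb.

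The sparse bins of human 17 were spread over both sides of the chromosome and made up more of it than of the other autosomes. Its 80 bins held 0 to 29 peaks, with a median of 8 and quartiles of 5 and 12, where the other human autosomes had a median of 14 and quartiles of 9 and 19. With the same rule as in mouse, 25.8% of the bins of the other autosomes were sparse and 28.8% were dense. On human 17, 48 bins (60%) were sparse, 2 (2.5%) were dense and 8 (10%) exceeded the median of the others. The longest stretch without a peak, 3046 kb from 22228776 to 25275201, divided the chromosome into 204 peaks before it and 504 after it. The density was 9.18 per Mb (7.96 to 10.5) before and 9.01 per Mb (8.24 to 9.84) after, a ratio of 0.982 (0.833 to 1.16). The stretch was picked from the peaks, and unsequenced parts of the build were not separated out, so the stretch does not show absence of SIRT7.

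**Figure D4:**
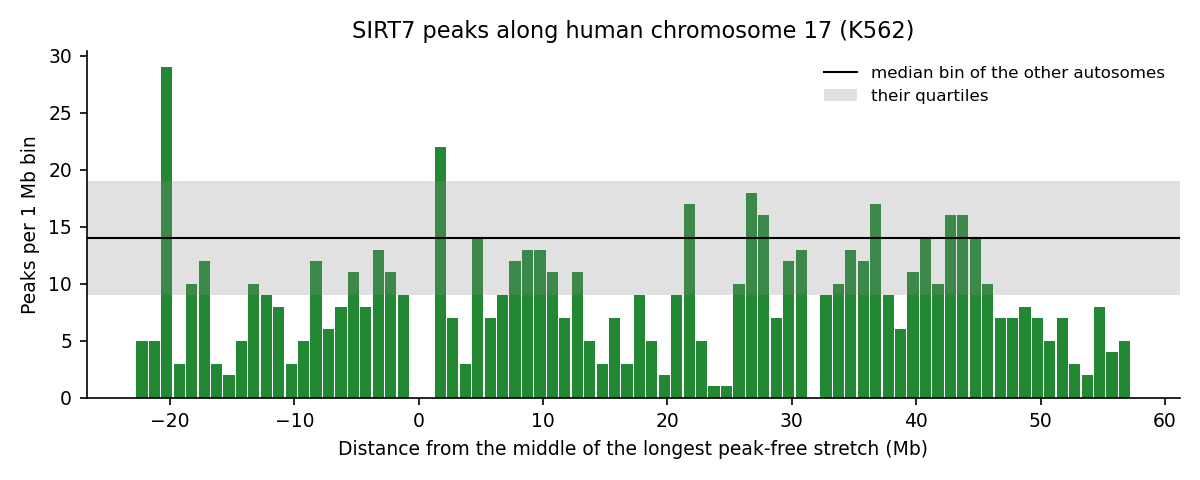
SIRT7 peaks per 1 Mb bin of human chromosome 17 in K562 cells, by distance in Mb from the middle of the longest peak-free stretch; the line and band give the median (14) and quartiles (9 and 19) of the bins of the other autosomes. Of the 80 bins, 48 lie at or below the lower edge of the band, and the 2 bins above it hold 29 and 22 peaks.

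The densest bin of human 17 was 3 to 4 Mb with 29 peaks, matched or passed by 125 of the 2684 bins of the other autosomes (4.66%). Its peaks had a median width of 800 bp and covered 25.7 kb, and its neighbours held 5 and 3 peaks. As on distal mouse 11, the densest megabase stood alone among sparse ones. The next were 25 to 26 Mb with 22 peaks, directly after the longest peak-free stretch, and 50 to 51 Mb with 18. The bins at 23 to 24, 24 to 25 and 55 to 56 Mb held none. The first of these lay in the long peak-free stretch, as did the second.

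Windows of 10 Mb on human 17 ranged from 5.8 peaks per Mb (4.40 to 7.50) at 70 to 80 Mb to 12.3 (10.2 to 14.7) at 60 to 70 Mb. Of the 244 whole windows of the other autosomes, 6 (2.46%) held as few peaks as the window at 70 to 80 Mb or fewer, and 61 (25%) as few as the window at 60 to 70 Mb or fewer. These neighbouring windows were the sparsest and the densest of the chromosome. The bins from 70 to 81 Mb formed its longest sparse run, 11 bins with 63 peaks. The other windows had 8 (10 to 20 Mb), 8.6 (20 to 30 Mb), 9.1 (30 to 40 Mb), 6.2 (40 to 50 Mb) and 11 (50 to 60 Mb) per Mb. In both species the sparsest window was the last whole one before the end of the chromosome, but its interval overlapped those of other windows. On human 17 the window at 40 to 50 Mb was nearly as sparse. The end of the long arm of human 17 is conserved with the end of mouse 11.

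Width was not used to choose the chromosomes. Peaks were slightly narrower than elsewhere on both. The median width was 868 bp (801 to 925) on distal mouse 11 and 907 bp (857 to 957) on proximal mouse 11, against 982 bp (973 to 991) on the other autosomes. The intervals of the distal and proximal part overlapped, and both lay below that of the other autosomes. The median of the whole of mouse 11, 888 bp, was below those of all 18 other autosomes, which ran from 897 to 1042 bp. On human 17 the median was 493 bp (474 to 521) against 544 bp (540 to 548), and 1 of the other 21 autosomes, chromosome 19, had a lower median of 489 bp. Peaks wider than 2 kb made up 23.9% (20.8 to 27.3) of the distal and 25.5% (23.4 to 27.7) of the proximal peaks of mouse 11, with 27.0% (26.6 to 27.3) elsewhere. On human 17 they made up 5.79% (4.19 to 7.77), with 5.42% (5.20 to 5.64) elsewhere.

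Peaks of 5250 to 6250 bp, near the length of a full L1 element, were sparser on distal mouse 11 than narrow peaks were. This width class had been set from the widths of the whole MEF list. The distal part held 42 of them, 0.271 times (0.195 to 0.367) their density on the other autosomes, whereas peaks under 1000 bp had 0.526 times (0.475 to 0.580). The class made up 6.05% (4.40 to 8.09) of distal peaks, 10.997% (9.49 to 12.7) of proximal peaks and 10.5% (10.2 to 10.7) of those on the other autosomes. In the distal parts of the other 18 autosomes its share ran from 8.36% to 12.6%, so mouse 11 was below all of them. The density of the class in the distal part was 0.295 times (0.205 to 0.416) that in the proximal part, which held 172.

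The share of this class varied along mouse 11. In windows of 10 Mb it was 13.6% at 10 to 20 Mb, 10.9% at 20 to 30 Mb, 6.02% at 30 to 40 Mb and 14.5% at 40 to 50 Mb. Between 50 and 68 Mb, where all peaks were already sparse, it was 11.6% (7.95 to 16.1), from 30 peaks. It then fell to between 3.70% and 6.71% in each window from 70 to 110 Mb and was 10.3% at 110 to 120 Mb, from 4 to 11 peaks per window. A low share was therefore also seen in 1 proximal window, and the last distal window had the share of the other autosomes.

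Peaks of 1000 to 5250 bp on distal mouse 11 were near to the ratio of all its peaks, 0.469, and the widest peaks were further from it. Relative to the other autosomes, peaks of 1000 to 2000 bp had 0.405 times (0.339 to 0.480) and peaks of 2000 to 5250 bp 0.471 times (0.383 to 0.572) the density. Peaks of 6250 bp or wider had 0.760 times (0.480 to 1.15) the density elsewhere, an interval that includes 1. They made up 3.31% (2.11 to 4.93) of distal peaks against 2.05% (1.94 to 2.16) on the other autosomes. They were few, 23 in the distal and 26 in the proximal part, and their ratio of distal to proximal density was 1.07 (0.583 to 1.95).

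**Figure D5:**
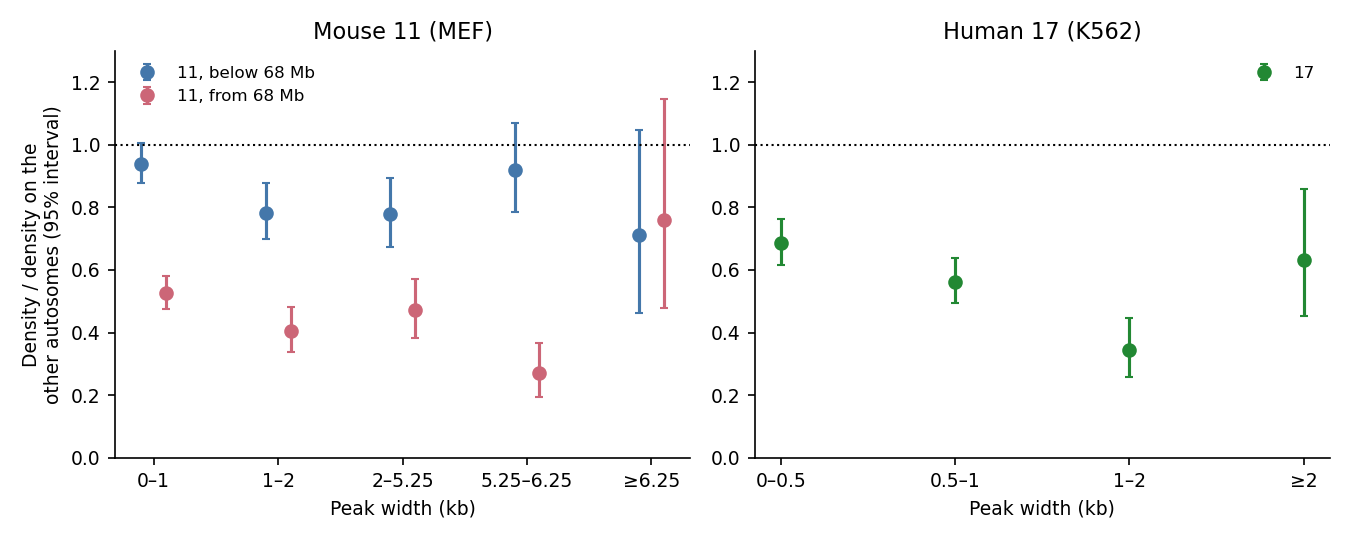
Density of SIRT7 peaks by width class (kb) on proximal and distal mouse 11 (left) and human 17 (right), divided by the density of the same class on the other autosomes, with 95% exact intervals. Distal mouse 11 is lowest for the class of 5250 to 6250 bp (0.271), and human 17 for that of 1000 to 2000 bp (0.343).

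On human 17 it was the peaks of 1000 to 2000 bp that were sparsest relative to the other autosomes, with 0.343 times (0.259 to 0.446) their density. They made up 7.91% (6.03 to 10.1) of its peaks, from 56 peaks, against 13.6% (13.3 to 14.0) elsewhere, and the shares of the other 21 autosomes ran from 9.85% to 24.5%. Peaks under 500 bp had 0.686 times (0.616 to 0.762), those of 500 to 1000 bp 0.563 times (0.495 to 0.637) and those of 2000 bp or wider 0.631 times (0.452 to 0.859) the density elsewhere. The class of 1000 to 2000 bp was singled out after the values of the 4 classes were seen. For the 4 classes the ratio of the density after to that before the longest peak-free stretch ran from 0.882 to 1.41, and all 4 intervals included 1.

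The score that the authors' peak caller gave each peak differed little on mouse 11. Its median was 140 (125 to 150) in the distal and 142 (134 to 152) in the proximal part, against 146 (145 to 148) on the other autosomes. Peaks of every strength were fewer in the distal part. Over the 4 quartile groups of the whole list by score, from weakest to strongest, the ratio of distal to proximal density was 0.564 (0.472 to 0.672), 0.523 (0.434 to 0.629), 0.619 (0.516 to 0.742) and 0.448 (0.369 to 0.541). On human 17 the median score was 80.8 (74.5 to 90.4) against 93.3 (92.1 to 94.5) elsewhere. It was 105 (84.8 to 126) before the longest peak-free stretch and 75.3 (68.7 to 83.0) after it, so the short side carried stronger peaks at a like density.

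The strongest peaks of proximal mouse 11, distal mouse 11 and human 17 ranked 43, 44 and 62 in their lists by score. On proximal mouse 11 the 5 highest lay from 31822516 to 31823065 (score 942, rank 43 of the list), 13982677 to 13984786 (913), 22434836 to 22436843 (836), 60627758 to 60629748 (832) and 46326468 to 46328835 (784). On distal mouse 11 they lay from 71079374 to 71081514 (927, rank 44), 93289124 to 93291013 (880), 79658582 to 79660735 (814), 121066825 to 121068917 (802) and 92738722 to 92740325 (734). Of these 10 peaks, 9 were between 1604 and 2368 bp wide, and the strongest was 550 bp wide. The distal list of 5 thus reached scores like the proximal one from 694 peaks against 1564. The single widest peak of each part was weak. It was 8122 bp from 12037379 to 12045500 with a score of 50.4 in the proximal part. In the distal part it was 7745 bp from 120181783 to 120189527 with 72.4. As a class, peaks of 6250 bp or wider were not weak, with median scores of 166 (proximal) and 178 (distal), against 142 and 140 for all peaks.

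On human 17 the 5 highest scores lay from 10456955 to 10457602 (878, rank 62 of the list), 39200893 to 39201616 (819), 28766463 to 28769237 (765), 25487761 to 25489677 (750) and 11381118 to 11382296 (735). Their widths ran from 648 to 2775 bp. The widest peak spanned 6114 bp from 64592624 to 64598737 with a score of 208.

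Fewer peaks on these chromosomes had a close neighbour. A neighbour within 10 kb was found for 45.0% (41.2 to 48.7) of distal and 51.1% (48.6 to 53.6) of proximal peaks of mouse 11, against 57.3% (56.9 to 57.7) on the other autosomes. On human 17 the share was 40.7% (37.0 to 44.4) against 50.1% (49.6 to 50.6). This share falls with density. The variance to mean ratio of the bins, which is near 1 for independent peaks, was 7.99 in the distal part, 5.70 in the proximal part and 6.98 on the other mouse autosomes. It was 3.14 on human 17 and 4.02 on the other human autosomes. Peaks of distal mouse 11 were therefore few but unevenly spread.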

How the data were processed

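The authors deposited 2 SIRT7 peak lists, and each gives the position of a peak and a score. The peak names carry the caller's name, MACS, and the submitters' processing notes list MACS 1.4.2, Bowtie, both builds (mm9, hg19) and tools for read quality and trimming, without their roles. Settings, the control, multiply mapping reads and any pooling of replicates: not given in the sources used here. In MACS 1.4 the score is a multiple of the negative log10 p-value, so it is not the exponent itself.

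Peaks were assigned by their midpoint. Densities use the span between the outermost peaks of a chromosome, and positions count from 1. Bins and windows lie wholly within that span. Intervals (95%) are exact Poisson, exact conditional (ratios), exact binomial (shares) and order-statistic (medians). Named are the 5 highest scores, the widest peak, the 3 densest and 3 sparsest bins, the longest peak-free stretch and the extreme windows of each part. Python 3.11.15, numpy 2.4.6, pandas 2.3.3 and scipy 1.17.1 were used, and the calculations were tested on simulated data. The members, classes and rules were chosen with earlier results of these data known. Alternatives changed the score minimum, merging, width limit, boundary, bin size and neighbour distance, or left out windows. Gene content and sequence of bins were not analysed here.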

Additional observations from a re-analysis of the deposited data

How the results depend on the processing

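Distal mouse 11 stayed below proximal in density under every setting run. With the main boundary kept, mouse 11, both its parts and human 17 stayed below the density of the other autosomes under every setting run for these ratios. The settings that moved the boundary were run only for the ratio of distal to proximal density. The ratio after to before the longest peak-free stretch of human 17, 0.982, whose interval includes 1, turned to 1.04 on merging. Leaving out each 10 Mb window in turn gave ratios of distal to proximal density on mouse 11 from 0.497 to 0.579 and ratios of human 17 to the other autosomes from 0.556 to 0.618. The boundary at 50 Mb, added after the data were seen, gave a ratio of distal to proximal density of 0.478. With that split the part of mouse 11 below 50 Mb was not below the other autosomes, with a ratio of 1.01 (0.955 to 1.07). With scores at or above the list median, and with scores of at least 100, human 17 had 0.533 and 0.534 times the density of the other autosomes. The ratio after to before the stretch fell to 0.772 (0.608 to 0.986) and 0.761 (0.597 to 0.974), so stronger peaks were sparser after the stretch while all peaks were not.

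The 2 settings on score, in the same order, kept only stronger peaks, which were wider at the median. Median widths became 1680 and 1324 bp (proximal mouse 11) and 1520 and 1231 bp (distal), against 1709 and 1363 bp elsewhere. On human 17 they became 678 and 683 bp, against 739 and 744 bp, so all stayed below the other autosomes. Shares wider than 2 kb became 45.4% and 37.2% (proximal), 40.8% and 34.3% (distal), against 44.2% and 37.1% elsewhere, and 10.90% and 10.89% (human 17), against 9.78% and 10.04%. Median scores became 280 and 229 (proximal), 261 and 219 (distal), against 270.3 and 225 elsewhere, and 199 and 202 (human 17), against 196 and 201. The proximal part was then above the other autosomes in the share wider than 2 kb and in median score. Human 17 was above them in median score. Both had been below them before, but each new interval included their value. Peaks of 5250 to 6250 bp became 20.9% and 16.7% of proximal and 11.3% and 8.97% of distal peaks, against 19.3% and 15.3% elsewhere. Peaks of 1000 to 2000 bp on human 17 became 15.1% and 15.2%, against 22.1% and 22.2% elsewhere. The settings on both width classes were added after the data were seen.

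Merging peaks closer than 1 kb gave a proximal median width of 1008 bp and score of 157, and shares wider than 2 kb of 33.1% (proximal), 28.3% (distal) and 10.97% (human 17), against 33.3% and 12.3% elsewhere in mouse and human. Human 17, above the others before merging, was then below them, but its interval included their value both times. A neighbour within 5 and 20 kb was found for 35.9% and 70.3% of proximal, 34.7% and 59.7% of distal and 30.8% and 51.4% of human 17 peaks. In 2 Mb bins 71.8% of human 17 was sparse. Of 117 alternatives, 76 stayed within the interval of the reported value. No paired analysis was possible because each group had 1 peak list. Gene content and sequence had no genome of these builds and were left out. Since the read depth is unknown, missing peaks do not show missing SIRT7.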
